A study of Homo sapiens with 4 samples.

Results

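Complement is a cascade of blood and tissue proteins that marks targets and can open their membrane, and 9 of its genes, out of 27658 listed, were followed here in cultured prostate cancer cells. They comprise the proteases C1R, C1S, CFB and CFI, the central component C3, the inhibitor SERPING1 and the membrane regulators CD46, CD55 and CD59. The set was chosen on the values of C1S, which was lower with OICR-9429 in DU145 and higher in PC-3, so the treatment contrasts of all 9 genes are given as a description, with no test. Each line was sequenced as 1 solvent library (DMSO) and 1 treated library (OICR-9429 for 48 h, at 120 µM for DU145 and 150 µM for PC-3), which makes 4 libraries of total RNA. Pairs of values are given below with the solvent library first. DU145 and PC-3 are established lines from metastases of prostate carcinoma. OICR-9429 is an antagonist of WDR5, a scaffold protein of the MLL histone methyltransferases, and DMSO is its solvent. The lines were kept in different media (DMEM for DU145, RPMI1640 for PC-3) and received different doses, so line, dose and medium cannot be told apart.

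In the classical pathway C1q holds the protease C1r and its substrate C1s, which cuts C4 and C2, while in the alternative pathway factor B supplies the protease, and both routes end in cleavage of C3. C1 inhibitor, the product of SERPING1, inactivates C1r and C1s, and factor I degrades the C3 and C4 fragments deposited on a surface. CD46 is a cofactor of factor I, CD55 speeds the decay of the C3-cleaving enzymes, and CD59 blocks the membrane attack complex. The liver makes most plasma complement, and many epithelial and tumour cells make some components and carry the membrane regulators.

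Between 27591000 and 29312000 fragments were counted per library, so 3 fragments corresponded to 0.102 to 0.109 CPM. Epithelial markers summed to 771 to 1293 CPM, and CTNNA1, deleted in PC-3, had 499 and 656 CPM in the DU145 libraries against 2.73 and 3.45 CPM in those of PC-3. Of the markers of the androgen-responsive prostate, KLK2 and KLK3 were not listed in either line. Hepatocyte markers summed to 0.171 to 0.684 CPM and leukocyte markers to 0.971 to 4.10 CPM. The 4 fibroblast markers summed to 10.2 and 3.55 CPM for DU145 and to 69.0 and 17.4 CPM for PC-3, nearly all of it COL1A1. DCN was not listed in either line, and the part of these genes in the results below was not tested. In bulk RNA, fewer cells that express a gene and less RNA per cell cannot be told apart.

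Promoter sequences from RefSeq (GRCh38.p14) matched 6 of the 9 genes, in 11 windows, and 3 are shown for the 250 bases before the start. C1R is shown because it differed in opposite directions in the lines, CD55 because it stood apart in PC-3 but not in DU145, and CFB because its window held every motif searched. Capitals mark the matches.
C1R, chr12:7091894-7092143, minus strand: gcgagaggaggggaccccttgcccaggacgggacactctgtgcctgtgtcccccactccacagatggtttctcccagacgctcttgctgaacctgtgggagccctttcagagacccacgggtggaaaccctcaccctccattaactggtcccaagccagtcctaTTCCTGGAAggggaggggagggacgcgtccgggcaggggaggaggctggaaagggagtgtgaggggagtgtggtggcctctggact
CFB, chr6:31945845-31946094, plus strand: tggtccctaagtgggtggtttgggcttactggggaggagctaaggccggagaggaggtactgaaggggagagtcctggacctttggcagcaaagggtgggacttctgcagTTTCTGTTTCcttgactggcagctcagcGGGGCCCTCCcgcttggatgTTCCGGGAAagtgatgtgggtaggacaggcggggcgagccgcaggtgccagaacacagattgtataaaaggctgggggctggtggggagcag
CD55, chr1:207321428-207321677, plus strand: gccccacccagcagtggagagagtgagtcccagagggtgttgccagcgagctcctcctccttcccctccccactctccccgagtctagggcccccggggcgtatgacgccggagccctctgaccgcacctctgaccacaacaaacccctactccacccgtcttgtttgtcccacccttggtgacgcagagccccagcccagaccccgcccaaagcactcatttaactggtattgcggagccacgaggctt
The motifs, searched on both strands, were the STAT site TTCNNNGAA, the core of the interferon-stimulated response element (GAAA, any 2 bases, GAAA) and the NF-kB consensus. They occurred in 6.57%, 3.02% and 9.96% of 35116 promoter windows of the same length. The C1R window above held the STAT site from 86 to 78 bases before the start, and the other C1R window held none of the motifs. CFB held a STAT site (92 to 84 bases before the start), the interferon core (140 to 131) and the NF-kB consensus (112 to 103), without overlap. Of the 4 CD59 windows, an overlapping pair shared 1 STAT site and the other pair held no match, nor did the windows of CD55, CD46 or CFI.

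The 6 secreted complement genes stood lower with OICR-9429 in DU145, 4 of them by 2-fold or more, while no membrane regulator differed by 2-fold there. With a 2-fold difference on the log2(CPM + 1) scale and at least 1 CPM in the higher library as the rule of size, 4 of the 9 genes were lower in DU145 (C1R, C1S, C3 and SERPING1) and 0 were higher. The background was 8.01% lower and 0.999% higher of 16120 genes at that level. That split moved with the scale, to 277 higher and 849 lower under TMM and 327 and 764 under median-of-ratios scaling, while the same 4 genes of the set stayed past 2-fold. In PC-3, 3 of the 9 were higher (C1R, C1S and CD55) and 0 were lower, against 7.15% higher and 8.68% lower of 14623 genes. In DU145 8 of the 9 genes reached 1 CPM, with a median change of -0.95 (all genes -0.18), and in PC-3 6 of the 9 did, with a median of 1.19 (all genes -0.01). C1R and C1S were both lower by 2-fold in DU145 and higher by 2-fold in PC-3, a pattern that 49 of 13566 genes (0.361%) showed. Since that contrast chose the set, nothing is read from these counts. With 1 library per group no difference has a replicate check, and all intervals below cover counting error only.

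**Figure D1:**
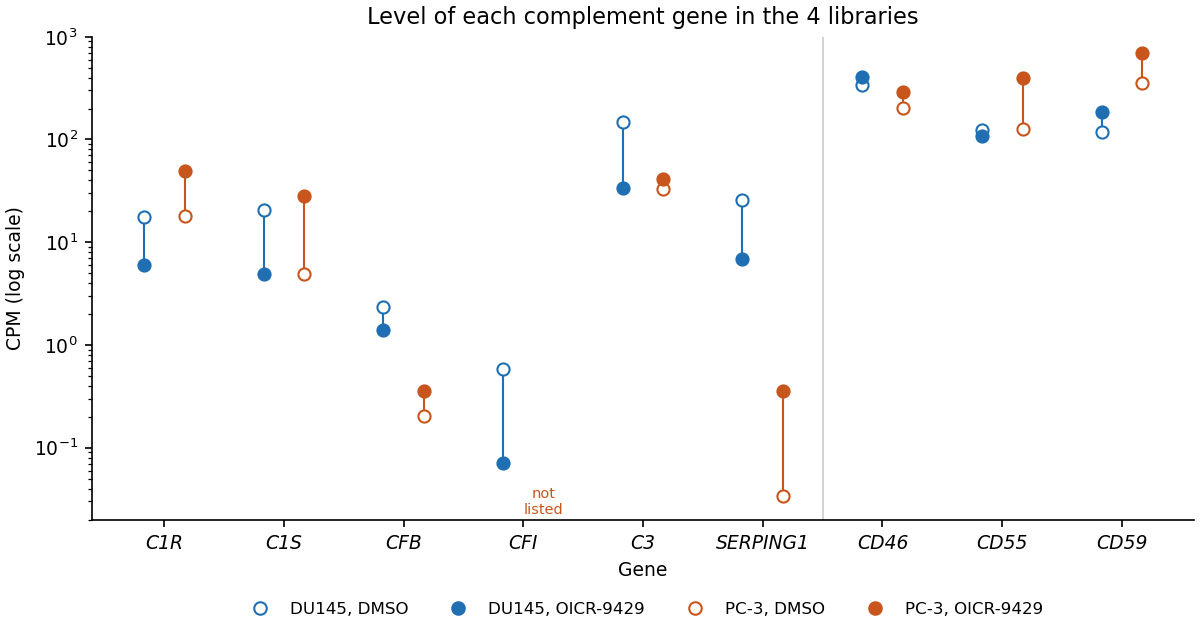
Level in CPM (log axis) of the 9 genes in the 4 libraries, with open circles for DMSO, filled circles for OICR-9429 and a line joining the 2 libraries of a cell line. In DU145 C1R, C1S, C3 and SERPING1 drop with OICR-9429, while in PC-3 C1R, C1S, CD55 and CD59 climb, and CFI was not listed in PC-3. CFI in DU145 also drops and SERPING1 in PC-3 also climbs, both under 1 CPM and on few fragments. C3 and CD46 in PC-3 are higher by less.

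C1S encodes the protease that cuts C4 and C2. For DU145 the solvent library held 20.4 CPM and the treated one 4.96 CPM, and for PC-3 they held 4.95 and 28.2 CPM. The solvent library of DU145 and the treated library of PC-3 were thus the high ones, and the other 2 were low and nearly equal. The ratio of treated to solvent was 0.243 (95% interval 0.201 to 0.293) in DU145 and 5.70 (4.77 to 6.85) in PC-3. On the log2(CPM + 1) scale these were changes of -1.85 and 2.30. With DMSO the gene was 4.12-fold (3.43 to 4.99) higher in DU145 than in PC-3, and with OICR-9429 it was 5.69-fold (4.75 to 6.86) higher in PC-3, so the order of the lines turned over. In the GENCODE 29 annotation an exon of C1S overlaps EMG1 on the same strand, whose levels were 1.81 and 1.93 CPM (DU145) and 0.785 and 0.432 CPM (PC-3).

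C1R encodes the protease that activates C1s, and lies like C1S on chromosome 12, on the other strand. Its levels were 17.6 and 5.94 CPM (DU145) and 18.2 and 49.6 CPM (PC-3). The solvent libraries were alike, with a ratio of PC-3 to DU145 of 1.03 (0.913 to 1.17), and the treated libraries lay below and above them, 8.36-fold (7.12 to 9.86) apart. The ratio to solvent was 0.338 (0.282 to 0.403) in DU145 and 2.73 (2.47 to 3.02) in PC-3. Per length of their annotated exons, C1S stood at 1.06 times (0.935 to 1.20) the level of C1R in DU145 with DMSO and at 0.760 times (0.603 to 0.956) with OICR-9429. In PC-3 this level ratio was 0.248 (0.205 to 0.298) and 0.517 (0.473 to 0.565). C1S thus stood lower relative to C1R in the treated library of DU145, where the intervals overlap slightly, and higher in that of PC-3, where they do not. C1R shares exonic bases with C1RL, a C1r-like protease gene, with 60.6 and 34.1 CPM (DU145) and 5.90 and 15.1 CPM (PC-3).

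C3 encodes the component on which the pathways meet. Its DU145 levels were 148 and 33.6 CPM (ratio 0.228, 0.212 to 0.244), and its PC-3 levels were 33.0 and 40.9 CPM (ratio 1.24, 1.14 to 1.35). Only the DU145 solvent library was high, at 4.48-fold (4.17 to 4.81) the PC-3 solvent level, and treated DU145 came down to the PC-3 range. SERPING1 had DU145 levels of 25.6 and 6.82 CPM (ratio 0.267, 0.226 to 0.313). In PC-3 it was near the limit of detection, with 1 fragment in the solvent library and 10 in the treated one (0.0341 and 0.360 CPM, ratio 10.5, 1.5 to 458). The gene of the inhibitor and those of its targets C1r and C1s thus stood lower together in DU145, while in PC-3 those of the targets were higher with almost no inhibitor transcript.

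CFB, the alternative pathway protease, was low throughout. DU145 had 2.36 and 1.41 CPM (ratio 0.597, 0.392 to 0.899). PC-3 had 0.205 and 0.360 CPM, where 6 and 10 fragments gave a ratio of 1.76 (0.579 to 5.88). CFB overlaps C2, its classical pathway counterpart, on the same strand, so its level is uncertain. CFI, the degrading protease, was carried by 16 and 2 fragments in DU145 (0.580 and 0.0703 CPM, ratio 0.121, 0.0135 to 0.516). It was not listed in PC-3 and has no value there.

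The membrane regulators were well above the limit of detection in every library. CD55 levels were 123 and 107 CPM (DU145) and 127 and 399 CPM (PC-3). Its solvent libraries were alike, with a ratio of PC-3 to DU145 of 1.03 (0.987 to 1.08), and only treated PC-3 stood out. The ratio was 3.14 (3.03 to 3.26) in PC-3 and 0.872 (0.831 to 0.916) in DU145, where the direction depends on the scale: the log2 change of -0.20 became 0.05 under median-of-ratios scaling. CD59 levels were 117 and 186 CPM for DU145 (ratio 1.58, 1.52 to 1.66) and 354 and 699 CPM for PC-3 (ratio 1.98, 1.93 to 2.03). It lay just short of the rule of size in PC-3, with a log2 change of 0.98, and passed it under both other scalings. CD46 levels were 338 and 410 CPM for DU145 (ratio 1.21, 1.18 to 1.25) and 201 and 287 CPM for PC-3 (ratio 1.43, 1.38 to 1.48). CD46 and CD59 were thus higher in the treated library of each line, and both stayed under 2-fold on the deposited scale.

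**Figure D2:**
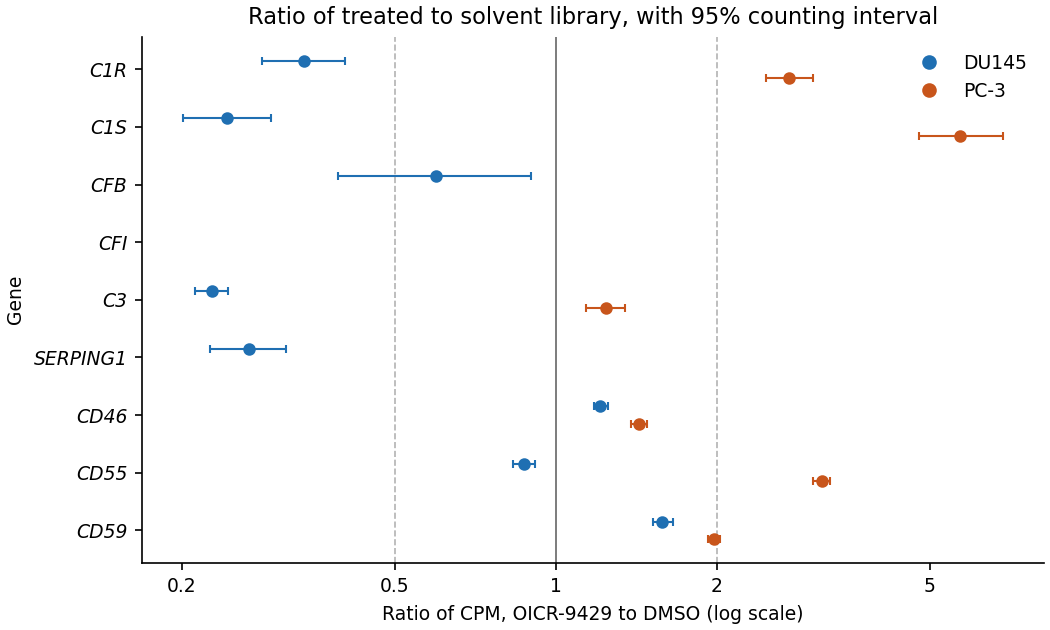
Ratio of CPM with OICR-9429 to CPM with DMSO (log axis) with its 95% counting interval, for genes with at least 1 CPM in a library of the line; the dashed lines stand at 0.5 and 2. The points of C1R and C1S lie on opposite sides of 1 in the lines, while those of CD46 and CD59 lie above 1 in both.

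Summed over the 6 secreted genes, the DU145 libraries held 214 and 52.8 CPM (ratio 0.247, 0.233 to 0.261). In PC-3 the 5 that were listed summed to 56.3 and 120 CPM (ratio 2.12, 2.0 to 2.25). The solvent library was the high one in DU145 and the treated one in PC-3, and the treated DU145 library came close to the PC-3 solvent library. The 3 membrane regulators summed to 578 and 703 CPM for DU145 (ratio 1.22, 1.19 to 1.24) and to 681 and 1385 CPM for PC-3 (ratio 2.03, 2.0 to 2.07). The sums of secreted components and of membrane regulators therefore differed in opposite directions in DU145 and by nearly the same factor in PC-3. Single genes varied within each class, and C3 alone gave 148 of the 214 CPM. In DU145 CD55 was lower on the deposited scale (ratio 0.872). In PC-3 the ratios ran from 1.24 (C3) to 5.70 (C1S) for secreted genes reaching 1 CPM, and from 1.43 (CD46) to 3.14 (CD55) for membrane regulators.

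**Figure D3:**
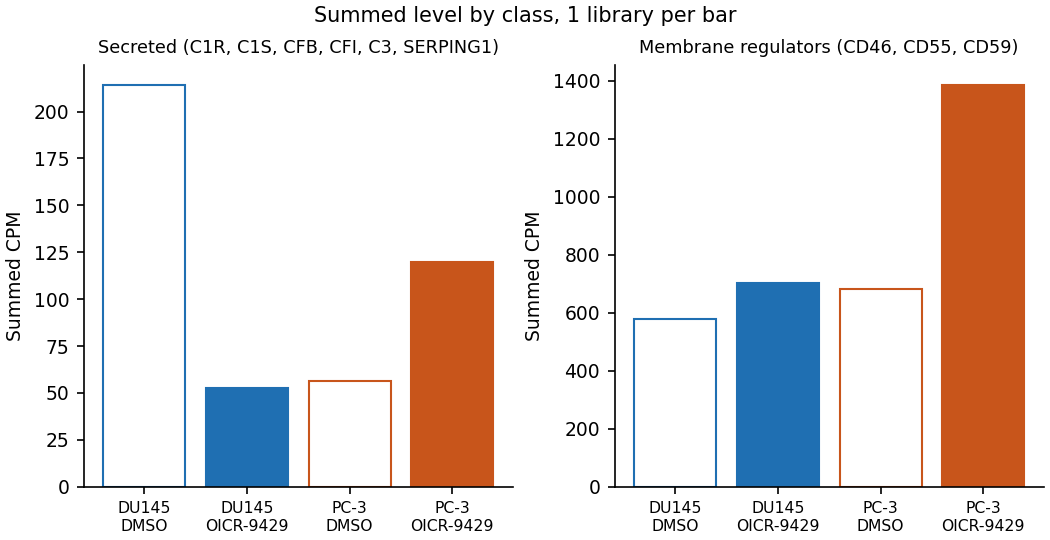
Summed CPM of the 6 secreted genes and of the 3 membrane regulators, 1 library per bar, both axes from 0. The secreted sum is highest in the DU145 solvent library, at 214 CPM, and the membrane sum reaches 1385 CPM in treated PC-3.

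Levels of different genes were compared per kilobase of annotated exon, and which intervals overlap depends on this choice of length. In DU145 with DMSO the order was CD46 (38.8 CPM per kb), CD55 (20.8), C3 (17.7), CD59 (11.3), SERPING1 (7.10), C1S (3.16), C1R (2.99), CFB (0.471) and CFI (0.119), with only C1S and C1R within each other's counting intervals. In treated DU145 C3 came after CD59, at 4.03 CPM per kb against 17.9, and the intervals of CD55 (18.1) and CD59 overlapped, as did those of C1R (1.01) and C1S (0.767). In PC-3 with DMSO CD59 led (34.1), before CD46 (23.0) and CD55 (21.5), with C3 at 3.96, C1R at 3.09, C1S at 0.766, CFB at 0.0410 and SERPING1 at 0.00947 CPM per kb. The intervals of CFB and SERPING1 overlapped. In treated PC-3 CD55 (67.6) and CD59 (67.5) stood level at the top by this length (138 and 91.7 with the longest transcript). CD46 (32.9) came next, and C1R at 8.44 CPM per kb stood above C3 (4.92) and C1S (4.36), whose intervals overlapped. SERPING1 (0.0998) and CFB (0.0720) were last there, also with overlapping intervals. CD46, CD55 and CD59 held the first places in 3 of the 4 libraries, and C3 came between them in DU145 with DMSO.

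The same treatment contrast was read for 50 other complement genes. In DU145 28 were listed and 16 reached 1 CPM, of which 3 were lower by 2-fold and 0 higher, beside 8.01% and 0.999% of all genes (median change -0.58, all genes -0.18). Among them CR2, a receptor for C3 fragments, stood at 4.71 and 0.492 CPM, and ITGAX, a subunit of complement receptor 4, at 3.41 and 0.703 CPM. In PC-3 25 were listed and 10 reached 1 CPM, of which 2 were higher and 2 lower, beside 7.15% and 8.68% of all genes (median change 0.07, all genes -0.01). C1RL was higher with a ratio of 2.55 (2.13 to 3.07), as was C3AR1, the C3a receptor, at 0.478 and 3.13 CPM. C5, the late component, was lower at 17.1 and 7.63 CPM, as was C1QBP, a mitochondrial protein also known to bind C1q, at 126 and 57.3 CPM.

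Among the most abundant of these other genes, CLU, which encodes the terminal-pathway inhibitor clusterin, had 170 and 183 CPM (DU145) and 33.9 and 45.9 CPM (PC-3). ITGB2, the beta chain of complement receptors, had 97.1 and 65.3 CPM (DU145) and 70.0 and 60.9 CPM (PC-3). CFD, the protease that activates factor B, had 9.24 and 5.80 CPM (DU145) and 8.56 and 7.09 CPM (PC-3). None of these passed the rule of size. The recognition subunits C1QA, C1QB and C1QC were not listed in either line, nor were the membrane attack genes C6, C8A, C8B and C9. The membrane attack gene C8G was listed in both lines, at 1.85 and 1.86 CPM (DU145) and 0.341 and 0.684 CPM (PC-3). C7 was listed in PC-3 only, at 0.136 and 0.108 CPM. C4A and C4B, near-identical copies, were listed under 1 CPM throughout. With line as the unit of replication, 0 of the 12 other complement genes tested rose or fell (limma with trend, smallest adjusted p = 0.61, for C5 with a log2 change of -0.83, lower in both lines), and 0 had an unadjusted p under 0.05. Over all 14976 genes 0.120% rose and 1.14% fell in that fit, and edgeR and DESeq2 also called 0 of the 12.

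**Figure D4:**
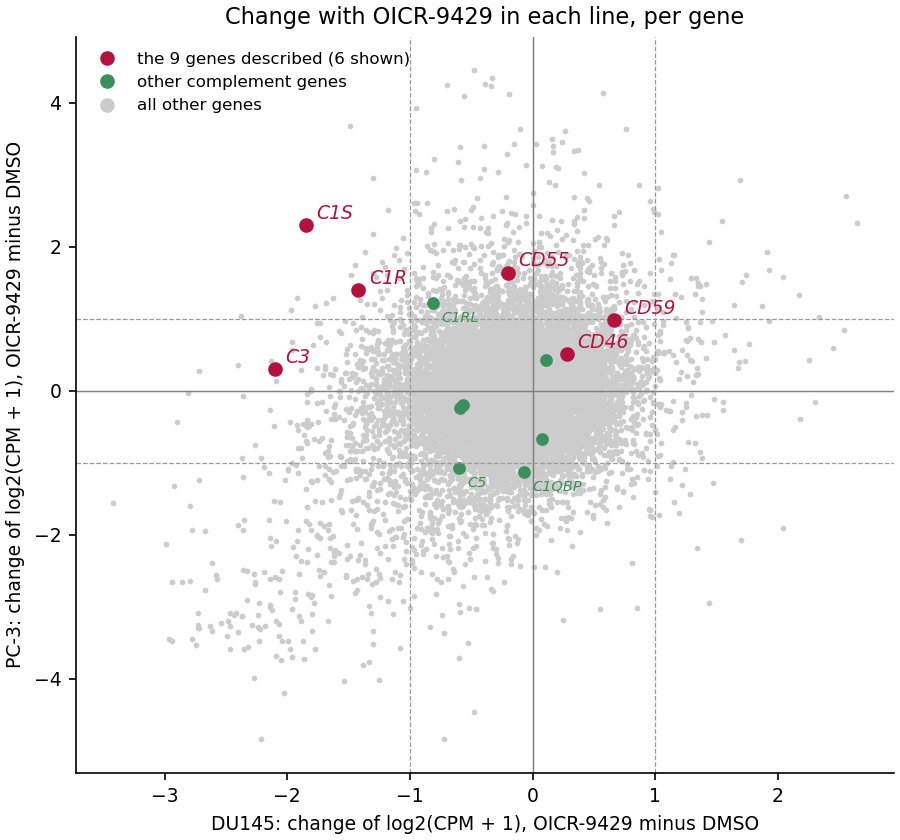
Change of log2(CPM + 1) with OICR-9429 in DU145 (x axis) and PC-3 (y axis) for 13566 genes that reach 1 CPM in both lines, with dashed lines at a 2-fold change. Of the 9 genes 6 are shown in red; C1S and C1R lie in the upper left field, C3 left of the dashed line, and CD46, CD55 and CD59 above 0 on the y axis.

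The difference between the changes in the lines, PC-3 minus DU145, was 4.14 for C1S, 2.82 for C1R, 2.41 for C3, 2.16 for SERPING1 and 1.84 for CD55 on the log2(CPM + 1) scale. It was 0.65 for CFB, 0.32 for CD59 and 0.23 for CD46, beside a median of 0.12 over the 13566 genes compared. Those 13566 genes reached 1 CPM in both lines, which SERPING1 and CFB did not in PC-3, so these 2 genes are not among them. In 11.4% of the 20993 genes listed in both lines the counting interval of the ratio lay below 1 in DU145 and above 1 in PC-3. It did so in the first 5 genes named. That background includes genes under 1 CPM, whose intervals are wide. The genes most like C1S were sought by the distance between the pairs of log2 changes over the 2 lines. The 10700 genes compared had at least 5 CPM in the higher library of each line, so a gene could pass on the library where it was high. The nearest was DAPK2, a death-associated kinase, at a distance of 0.55, with 7.29 and 2.36 CPM (DU145) and 0.512 and 5.86 CPM (PC-3). It was followed by ODF3B (0.60), HSD17B14, a hydroxysteroid dehydrogenase (0.67), NEAT1, a long noncoding RNA of paraspeckles (0.70), and OAS3, an oligoadenylate synthetase (0.80). NEAT1 had 830 and 367 CPM (DU145) and 131 and 751 CPM (PC-3). C1R ranked 16th at a distance of 0.99.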

How the data were processed

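Total RNA of 4 libraries was sequenced, and the labels gave each library its line, agent and dose. The authors normalized the read counts of each Ensembl gene to the library total and deposited them as CPM values. Their header says only that values are normalized, and the unit was read from the library sums. Listed in the submitters' processing notes, without role or order, are HISAT2 2.1.0, HTSeq 0.6.1, bcl2fastq 2.19.1 and hg19. Annotation, strand and overlap settings: not given in the sources used here. Genes that overlap or have near-identical copies (such as C4A and C4B) are therefore uncertain.

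Dividing by the smallest step of a library gave whole numbers for 100% of values (within 0.01 step), so reads were recovered. Their counts were even apart from values of 1 step, so 2 reads were taken as 1 fragment. Values of exactly 1 step (111 to 519 per library) occurred only beside at least 10 reads in the other library of the line and were set to 0. Genes without a listed value were left out, not set to 0. Ratios have exact conditional binomial intervals and levels per kilobase exact Poisson intervals, at 95%; repeat PCR copies cannot be told apart. Of 27658 identifiers 27302 were named by current symbols and 191 by GENCODE 29. Exon lengths and overlaps were taken from the GRCh38 exon positions of GENCODE 29, while the submitters' notes list hg19.

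Within a line there is no test. Across lines, treatment was tested beside a term for line by limma 3.58.1 (trend) on log2(CPM + 1), over 14976 genes over 1 CPM in at least 2 libraries and listed in both lines (1 residual degree of freedom, prior 12.7), with Benjamini-Hochberg adjustment at 0.05. It therefore rests mostly on the trend over all genes. A pseudocount of 1 CPM understates changes of low genes. Named genes are the 9 members, other complement genes past the rule of size or among the 6 most abundant, and the 5 nearest C1S. EMG1, C2, C7, C8G and the genes given as not listed were named after their values were seen. Some results that the rule names are not reported here. The members and lists were chosen with earlier results of these data known. Alternatives were other scalings, pseudocount, minimum level, edgeR 4.0.16 and DESeq2 1.42.0 on recovered fragments, no line term and another length.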

Additional observations from a re-analysis of the deposited data

Results flagged for a closer look

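Of the 9 genes 8 were listed in both lines, and CFI was not listed in PC-3. In 5 of these 8 the counting interval of the ratio lay below 1 in DU145 and above 1 in PC-3. It did so in 2398 of the 20993 genes listed in both lines (11.4%). Only 13566 of those reached 1 CPM in both lines, and genes with few fragments have wide intervals, so the background is not matched for level. C1S was chosen for this contrast, nothing is read from the count, and the difference between the lines was not tested. The difference of the log2 changes, PC-3 minus DU145, was 4.14 for C1S and 2.82 for C1R. It was 2.41 for C3, where most of the difference came from DU145. It was 2.16 for SERPING1, which rests in PC-3 on 1 and 10 fragments, and 1.84 for CD55, whose direction in DU145 held on the deposited scale and turned under median-of-ratios scaling.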

How the results depend on the processing

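The scale matters most in DU145, where TMM and median-of-ratios scaling shifted log2 ratios upward by 0.19 and 0.24 (0.03 and 0.02 in PC-3). Over all DU145 genes past 2-fold higher genes made up 11.1% as deposited (161 higher, 1291 lower), 24.6% under TMM and 30.0% under median-of-ratios scaling. The same 4 genes of the set, C1R, C1S, C3 and SERPING1, were lower by 2-fold in DU145 under each scaling, pseudocount and minimum tried, and C1R, C1S and CD55 were higher in PC-3, joined by CD59 under both other scalings. The log2 change of CD55 in DU145 was -0.01 under TMM and 0.05 under median-of-ratios scaling, where it reversed; the change of scale itself sets this. A pseudocount of 0.1 gave larger changes for low genes, with -2.00 for CFI in DU145 and 1.78 for SERPING1 in PC-3. Of the other complement genes, 5 were lower in DU145 with a pseudocount of 0.1 and 0 with a minimum of 5 CPM, which also leaves out CR2 and ITGAX. With that minimum 1 was higher in PC-3. With the longest transcript as length, CD46 and CD55 changed places in PC-3 with DMSO, as did C3 and C1S in treated PC-3, now without overlap. CD55 then stood above CD59 without overlap in treated PC-3 (138 against 91.7 CPM per kb) and treated DU145 (37.1 against 24.3). In DU145 with DMSO the intervals of CD46 (43.2) and CD55 (42.5) then overlapped, and those of C1S (6.63) and C1R (5.02) did not. In the fit across lines 18 genes rose and 171 fell; the counts were 9 and 90 under median-of-ratios scaling, 44 and 295 with DESeq2, 13 and 157 with edgeR, and 0 and 0 without a line term. Under each of these, 0 of the other complement genes rose or fell. In limma 1 of 6 had an unadjusted p under 0.05 with a filter of 5 CPM in 2 libraries, and 2 of 20 did without a filter. At this depth genes under about 0.1 CPM cannot be measured.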

Other observations

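Ordered by the difference of the log2 changes, PC-3 minus DU145, from the highest of 13566 genes, C1S stood at place 11, C1R at 80, C3 at 150 and CD55 at 389, while CD59 and CD46 stood at 5300 and 5950. These places describe the 4 libraries and carry no test. The endothelial marker PECAM1 had 18.2 and 27.2 CPM (PC-3) and 1.45 and 1.72 CPM (DU145), solvent first, while VWF and CDH5 were not listed in PC-3.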
